A study of Mus musculus with 20 samples.

Results

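Stable KLF4 sites without JMJD3 were KLF4 peaks that reprogramming cells held with or without exogenous JMJD3 and at which no JMJD3 was called. They were taken from the KLF4 list of wild-type (WT) cells that received JMJD3. A peak was kept when its midpoint lay within 400 bp of a KLF4 midpoint in the list of cells with a FLAG control vector, and when no position of JMJD3, mapped by anti-FLAG in cells with FLAG-JMJD3, lay within 400 bp of it. The rule kept 5733 of 14391 peaks (39.8%). Of the others, 3271 (22.7%) were stable with JMJD3 nearby, 3982 (27.7%) were gained with none nearby and 1405 (9.76%) were gained with JMJD3 nearby. Gained means only that no FLAG midpoint lay within 400 bp, so a FLAG interval could still overlap such a peak. Among gained sites without JMJD3, 70 had a FLAG midpoint over 400 and up to 500 bp away. The authors, merging peaks by their summits, report that nearly all KLF4 peaks were shared. Whether gained sites are new binding was not tested. These memberships rest on the KLF4 and JMJD3 lists themselves, so KLF4 and JMJD3 positions are given as descriptions.

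Mouse embryonic fibroblasts (MEFs) within their first passages were reprogrammed with OSKM, viruses for OCT4, SOX2, KLF4 and c-MYC, in medium with vitamin C. The labels name these viruses lentiviral, whereas the treatment protocol describes retroviruses. Chromatin immunoprecipitation followed by sequencing (ChIP-seq) gave 14 peak lists, 1 library each, so no difference between single lists had a replicate check or a test. KLF4 was mapped at day 5 in WT cells with FLAG (10655 peaks) or JMJD3 (14391 peaks), all of strain C57BL/6J-OG2. FLAG-JMJD3 was mapped at day 5 in WT cells of the same strain, with OSKM (14067 positions) or with OSlowKM, the same factors with less KLF4 virus (2284 positions). H3K27me3 was mapped in MEFs without virus and in OSKM cells with FLAG or JMJD3, collected on day 5 or day 10, each time from WT and from Jmjd3-/- (KO) cells. The KO samples carry the strain name C57Bl6J, which differs from that of the WT samples, so genotype and strain cannot be told apart by the labels. The paper describes littermate WT and KO MEFs without OG2 for its colony counts. Whether these gave the H3K27me3 libraries is not stated. The knockout could not be checked from peak positions, and the labels do not say which libraries came from the same cells. Shares carry 95% Wilson intervals and differences between shares carry 95% Newcombe intervals. These intervals hold counting error alone, and peaks that lie close together do not count as independent.

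KLF4 is a zinc-finger factor of the KLF and SP family that binds GC-rich DNA, and in reprogramming it takes part both in closing the fibroblast program and in opening epithelial and pluripotency genes. JMJD3, encoded by Kdm6b, is a histone demethylase acting on lysine 27 of histone H3. The trimethylated form of this residue, H3K27me3, is written by Polycomb complexes and lies on silent genes of development.

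A set of 9 stretches shows what the DNA under these sites looked like, chosen from the gene lists, from the members with H3K27me3 in the most lists and from those with the most KLF matches. All are from the plus strand of GRCm38.p6 (RefSeq), lie outside annotated exons and are printed 5′ to 3′. Capitals mark matches to the KLF motif GGGNGNGGC or its reverse complement, where N is any base.
Klf16, a KLF family gene with a member upstream of its TSS, chr10:80577431-80577559: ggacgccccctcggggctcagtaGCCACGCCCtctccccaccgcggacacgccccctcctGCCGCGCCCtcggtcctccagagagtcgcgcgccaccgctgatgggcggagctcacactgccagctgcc
Ovol2, a gene for an epithelial transcription factor, chr2:144330767-144330895: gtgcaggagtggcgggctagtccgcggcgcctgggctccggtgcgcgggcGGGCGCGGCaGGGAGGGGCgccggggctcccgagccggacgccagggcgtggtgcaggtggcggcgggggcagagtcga
Tfcp2l1, a gene for a naive pluripotency factor, chr1:118627837-118627944: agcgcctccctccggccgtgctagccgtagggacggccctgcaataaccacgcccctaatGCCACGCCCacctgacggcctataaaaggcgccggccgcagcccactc
Cdkn2a, the gene for the senescence inhibitors INK4A and ARF, chr4:89294677-89294805: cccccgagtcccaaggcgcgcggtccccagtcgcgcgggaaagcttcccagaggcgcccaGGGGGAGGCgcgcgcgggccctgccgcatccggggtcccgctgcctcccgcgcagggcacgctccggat
Phf20, a gene for a methyl-lysine reader, chr2:156196563-156196641: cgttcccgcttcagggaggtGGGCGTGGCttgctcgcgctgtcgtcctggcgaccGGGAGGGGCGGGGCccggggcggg
Stag1, a cohesin subunit gene, chr9:100643125-100643253: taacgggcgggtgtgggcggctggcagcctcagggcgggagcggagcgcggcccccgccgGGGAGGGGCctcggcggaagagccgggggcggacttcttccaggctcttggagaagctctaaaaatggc
4931408C20Rik, a member with H3K27me3 in all 10 lists, chr1:26687534-26687662: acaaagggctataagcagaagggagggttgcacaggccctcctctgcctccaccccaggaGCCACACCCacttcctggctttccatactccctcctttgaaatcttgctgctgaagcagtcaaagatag
Sec16b, an intronic member made of repeated KLF matches, chr1:157552340-157552468: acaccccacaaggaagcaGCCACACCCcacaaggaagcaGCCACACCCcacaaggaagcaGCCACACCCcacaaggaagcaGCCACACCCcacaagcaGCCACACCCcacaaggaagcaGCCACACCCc
Tmem270, an intergenic member with repeated KLF matches, chr5:134844227-134844355: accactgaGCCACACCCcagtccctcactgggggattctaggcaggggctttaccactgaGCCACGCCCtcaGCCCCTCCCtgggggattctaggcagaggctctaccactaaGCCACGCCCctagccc
The Klf16, Tfcp2l1, 4931408C20Rik, Sec16b and Tmem270 stretches carry the reverse complement, GCCNCNCCC, and in the Phf20 stretch 2 matches overlap each other.

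A KLF match within 200 bp centred on the midpoint was found in 49.5% of members (48.2 to 50.8), against 44.6% of all KLF4 peaks of JMJD3 cells. Windows 2 kb away from the same members held one in 4.52%, and 200 bp upstream of RefSeq starts held one in 21.6% of 32851 promoters. These shares check the KLF4 label of the list, since matches gathered at the midpoints. Members had 11.1 matches per 100 peaks in the 20 bp centred 10 bp from the midpoint and 0.890 per 100 peaks in the 20 bp centred 490 bp upstream. Taking the whole peak in place of the window gave 59.4%, so 40.6% of members held no match anywhere, and 25.6% held 2 or more.

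**Figure D1:**
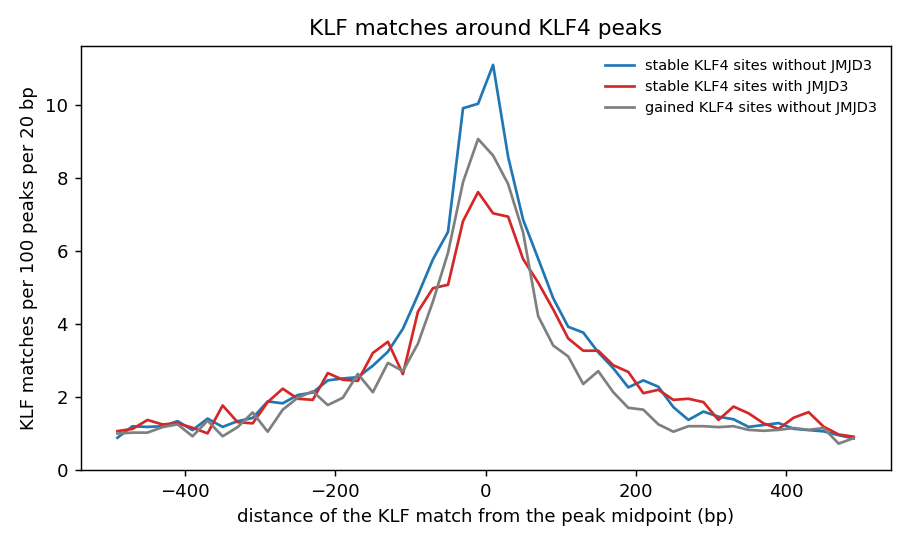
KLF matches per 100 peaks, in bins of 20 bp by distance from the peak midpoint, for stable KLF4 sites without JMJD3 (5733), stable sites with JMJD3 (3271) and gained sites without JMJD3 (3982). All curves are highest at the midpoint, where stable sites without JMJD3 reach 11.1 matches per 100 peaks.

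Stable sites without JMJD3 held a KLF match more often than stable sites with JMJD3, by 7.06 percentage points (4.92 to 9.18). The gap lay mainly away from promoters. Within 1 kb of a transcription start site (TSS) 55.0% of members had a match, a difference of 2.42 points (-0.546 to 5.40), and beyond 1 kb 41.8% had one, a difference of 8.89 points (5.87 to 11.9). Over the wider 50% of each KLF4 list the difference was 1.84 points (-1.23 to 4.90), an interval that crossed 0. Against gained sites without JMJD3 members had 4.94 points more (2.93 to 6.95). That difference changed sign with position, at 10.98 points (8.22 to 13.7) within 1 kb of a TSS and -3.37 points (-6.33 to -0.408) beyond it.

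The form of the motif differed as well. GGGCGGGGC, the usual letters of a GC box bound by SP factors, was found in 19.1% of members, 5.09 points above stable sites with JMJD3 (3.51 to 6.64). GGGCGTGGC was found in 10.7%, 5.97 points above (4.87 to 7.04). Without a CpG, GGGTGTGGC was found in 8.46%, 1.58 points above (0.430 to 2.69), and GGGTGGGGC in 6.47%, where the difference of -0.652 points had an interval across 0 (-1.77 to 0.414). Among RefSeq promoters the same forms were found in 9.38%, 2.39%, 1.07% and 2.28%. Each form is one spelling of the KLF motif, searched on both strands.

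Letters of the partner factors were rare at members. The SOX letters CATTGTT were in 2.11% of member windows, below the 3.32% of windows 2 kb away, with a difference of -2.90 points from stable sites with JMJD3 (-3.77 to -2.10). The OCT letters ATGCAAAT were in 0.890%, with a difference of -0.761 points (-1.30 to -0.288). AP-1 letters TGANTCA, those of a factor family active in fibroblasts, were in 3.96%, with a difference of -3.68 points (-4.76 to -2.67). Within 1 kb of a TSS the OCT and AP-1 intervals crossed 0, at -0.812 to 0.228 and -1.72 to 0.302 points, and the SOX difference was -0.573 points (-1.29 to -0.0147). Beyond 1 kb the differences were -4.44 points for SOX (-6.05 to -2.92), -1.11 for OCT (-2.06 to -0.258) and -5.85 for AP-1 (-7.72 to -4.06). RefSeq promoters held these in 2.62%, 1.38% and 5.48%.

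Promoter letters differed among themselves. CCAAT, the box bound by NF-Y, was in 22.9% of members, in 24.0% of windows 2 kb from them (23.3 to 24.8) and in 29.3% of RefSeq promoters, so it did not gather at members. Among peaks within 1 kb of a TSS it was in 24.9% of members, 10.7 points above stable sites with JMJD3 (8.43 to 12.9), and beyond 1 kb the difference was -1.59 points (-4.15 to 0.933). NRF1 letters GCGCANGCG, those of a regulator of mitochondrial genes, were in 6.26%, against 0.157% 2 kb away and 4.78% of promoters. They were 2.59 points above stable sites with JMJD3 (1.67 to 3.48), and 2.79 points within 1 kb of a TSS (1.13 to 4.34). ETS letters CCGGAAG (8.20% of members, 6.29% of promoters) and the E-box CACGTG (5.72%, 5.26% of promoters) were also above stable sites with JMJD3 over all peaks, by 2.05 points (0.943 to 3.12) and 1.14 points (0.175 to 2.05). Within 1 kb of a TSS both intervals crossed 0, at -1.19 to 2.66 and -1.83 to 1.25 points. All 8 motifs were searched on both strands, and apart from the KLF spellings none contains another.

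Base composition went with position. The mean GC content of member windows was 60.5% (SD 11.03 across members), against 58.3% at stable sites with JMJD3, and the median ratio of observed to expected CpG was 0.660 against 0.526. Within 1 kb of a TSS the members' values were 66.4% and 0.829, and beyond it 52.3% and 0.255. Repeats soft-masked in the genome filled over 50% of the window at 7.41% of members, 3.78 points more than at stable sites with JMJD3 (2.82 to 4.70).

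Members sat at gene starts. Of the 5733, 3360 lay within 1 kb of a TSS (58.6%, 57.3 to 59.9), where 53.3% of all KLF4 peaks did. Within 100 bp lay 31.3% and within 5 kb 68.6%, and 4.76% lay more than 50 kb away. The median distance was 319 bp, against 1327 bp for stable sites with JMJD3 and 912 bp for gained sites without it. Away from promoters, 20.4% of members were intronic, 18.5% intergenic, 1.03% in coding exons and 1.03% in untranslated exon sequence. The nearest TSS belonged to a protein-coding gene for 72.4% of members, a lincRNA for 6.49% and a processed pseudogene for 5.91%.

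The difference in TSS share between stable sites without and with JMJD3 was 9.97 points (7.83 to 12.1). It depended on where the threshold for JMJD3 lay. When no JMJD3 position was allowed within 1000 bp it was 1.37 points (-0.701 to 3.45), and with 800 bp in place of 400 bp for both distances it was 1.76 points (-0.276 to 3.80). The 616 members with a JMJD3 position 400 to 1000 bp away were within 1 kb of a TSS in 83.8% of cases (80.6 to 86.5). At 1 to 10 kb from JMJD3 the share was 45.2%, at 10 to 50 kb 56.1% and beyond 50 kb 58.2%. Against gained sites without JMJD3 the difference was 8.03 points (6.02 to 10.04).

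Members near a start lay mostly on its upstream side. Among those within 1 kb, 58.6% were upstream (56.9 to 60.2), 13.9 points more than among stable sites with JMJD3 (10.9 to 16.8) and 7.03 points more than among gained sites without JMJD3 (4.29 to 9.77). Their median position was -22 bp, with quartiles at -110 and 62.3 bp. In the 100 bp just upstream of a TSS fell 18.5% of all members, and in the 100 bp just downstream 12.8%, whereas stable sites with JMJD3 had 12.1% and 12.3%. The rule split these classes by JMJD3 within 400 bp, which can bear on the side of a start. The upstream difference was not repeated at other JMJD3 distances. At 337 of the 3143 members within 1 kb of a protein-coding start (10.7%), coding genes started on both strands.

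**Figure D2:**
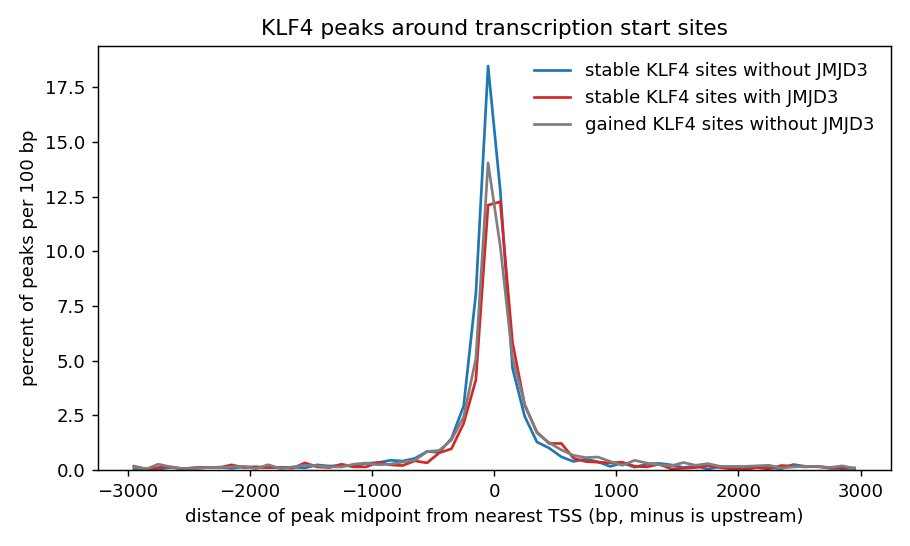
Percent of KLF4 peaks per 100 bp, by signed distance of the midpoint from the nearest TSS (minus is upstream), for the same 3 classes of KLF4 peak. Stable sites without JMJD3 are highest in the bin just upstream of the start, at 18.5%.

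Most members were far from JMJD3. The nearest OSKM JMJD3 position was more than 50 kb away at 43.0% of members, 10 to 50 kb away at 33.8%, 5 to 10 kb away at 6.82%, 1 to 5 kb away at 5.62% and 400 to 1000 bp away at 10.7%. Members at the threshold showed how close some calls were. Peaks at Zranb1 and Birc2 had JMJD3 just past 400 bp away and were kept, whereas those at Pelp1 and Dmtf1 had it 400 bp away and Degs1 399 bp away and were not. In all, 236 members had JMJD3 over 400 and up to 500 bp away, and 258 stable peaks left out had it 300 to 400 bp away. For the FLAG midpoint, Fbxo47 (397 bp), Hspg2 (396 bp) and Gtdc1 (391 bp) were just inside and Ddx54 (402 bp), Vti1b (405 bp) and Fbxo5 (406 bp) just outside.

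JMJD3 positions of OSlowKM cells were also scarce at members. Of the 5733, 52 had one within 400 bp (0.907%, 0.692 to 1.19), where 4.56% of all KLF4 peaks did. Stable sites with JMJD3 had 398 (12.2%), and the members' difference from them was -11.3 points (-12.4 to -10.1). Gained sites with JMJD3 also had a share of 12.2%. Gained sites without JMJD3 had nearly the members' share, with a difference of 0.0532 points (-0.346 to 0.424). The rule did not use the OSlowKM list, but the paper reports peaks common to both JMJD3 lists, and the rule left these out. The difference from stable sites with JMJD3 was thus in part set by the rule and is a description only. Within 1 kb the members' share was 2.32%.

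The peaks themselves moved little between FLAG and JMJD3 cells, which the rule in part required. The midpoint shifted by a median of 32 bp, 5073 members had a partner within 100 bp and 3864 within 50 bp, and 5666 overlapped their partner. The 5733 members shared 5673 partners, so a few FLAG peaks stood for more than 1 member, as at Trim28, a corepressor gene. There the FLAG interval chr7:13024118-13024580 was the partner of members at chr7:13024124-13024326 and chr7:13024379-13024613.

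Members were wider with JMJD3. The median width was 329 bp (quartiles 265 and 422 bp) in the list of JMJD3 cells and 285 bp (224 and 358 bp) for the FLAG partners. Of the members, 4058 were wider with JMJD3 (70.8%), 1652 were narrower and 23 had the same width, with a median ratio of 1.12. At least 1.5 times wider were 1048 and at least 1.5 times narrower 176. Stable sites with JMJD3 had medians of 353 bp and 308 bp, and gained sites without JMJD3 had a median of 234 bp. The narrowest member was 183 bp and the narrowest FLAG partner 174 bp, so a pair at both minimum widths counts as wider with JMJD3. The list of JMJD3 cells was also the longer of the KLF4 lists. The part of either in the widths was not tested.

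**Figure D3:**
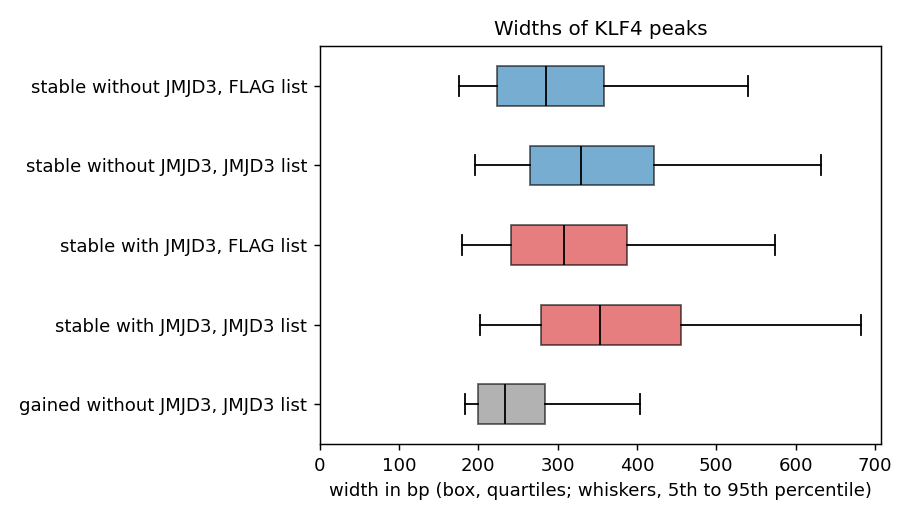
Widths of KLF4 peaks in bp, with boxes at the quartiles, a line at the median and whiskers from the 5th to the 95th percentile, for 3 classes and, where stable, for both lists. Stable sites without JMJD3 have a median of 329 bp with JMJD3 and 285 bp with FLAG.

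Wide members were promoter members. From the narrowest to the widest quartile the share within 1 kb of a TSS was 45.5%, 48.2%, 63.6% and 77.3%, while the share with a KLF match was 49.6%, 46.6%, 55.0% and 46.8%. Across members the widths with FLAG and with JMJD3 had a Spearman correlation of 0.550, a description over 5733 peaks that share their libraries. Klf16 had one of the wider promoter members, 966 bp with JMJD3 and 881 bp with FLAG, and Phf20 one of 749 and 473 bp.

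The 10 widest members were only in part promoter members, and 4 of them, Gm28437, Gm26917, Gm10722 and Izumo4, lay within 1 kb of a TSS. Of the 10, Gm28437 (4456 bp with JMJD3, 4265 bp with FLAG), Gm26917 (4207 and 3739 bp) and Gm21738 (3963 and 3959 bp) were the only members over 2000 bp. Next came Gm39469 (1706 bp), Tmem125 (1647 bp), Gm28502 (1645 bp), Vmn1r-ps2 (1611 bp), Gm10722 (1478 bp), 2700054A10Rik (1387 bp) and Izumo4 (1157 bp). The first 9 were wide in both lists, and Izumo4 was 332 bp wide with FLAG. Only Gm26917 and Izumo4 among them held a KLF match. In all, 100 members were at least 500 bp wide in both lists without a KLF match, and 34 of these had over 50% of the window soft-masked.

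No H3K27me3 peak was called at most members. An H3K27me3 peak overlapped 249 members in at least 1 of the 10 lists (4.34%, 3.85 to 4.90), where 4% of all KLF4 peaks were marked in any, and 5484 (95.7%) were in none. All H3K27me3 peaks were 1000 bp wide, with a score on a scale that the sources used here do not state. In MEFs before OSKM, 113 members were marked in WT cells (1.97%), where 2.06% of all KLF4 peaks were, and 94 in KO cells (1.64%), with 1.49% of all. At day 5 with FLAG, 124 members were marked in WT cells (2.16%, all peaks 2.08) and 110 in KO cells (1.92%, all peaks 1.82). With JMJD3 at day 5 the numbers were 53 in WT (0.924%, all peaks 0.841) and 82 in KO cells (1.43%, all peaks 1.36). Day 10 gave 103 with FLAG in WT cells (1.80%, all peaks 1.57) and 115 in KO cells (2.01%, all peaks 1.72). With JMJD3 at day 10 there were 56 in WT (0.977%, all peaks 0.813) and 72 in KO cells (1.26%, all peaks 1.13). The members' shares were near those of all KLF4 peaks in every list, with the WT JMJD3 lists lowest at both days.

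Over all positions members lay between their neighbouring classes. In all 10 lists they were marked more often than stable sites with JMJD3, by 0.763 to 1.67 points, and every interval was above 0. For day 5 WT cells with FLAG the difference was 1.64 points (1.18 to 2.10), and 17 of 3271 stable sites with JMJD3 were marked. Gained sites without JMJD3 were marked more often than members in 9 of 10 lists with an interval that excluded 0, for example at day 5 with FLAG in WT cells, where members minus gained sites was -1.50 points (-2.22 to -0.825). The exception was day 10 WT with JMJD3, at -0.279 points (-0.734 to 0.139). Near starts the gap to gained sites was wider. Within 1 kb of a TSS the day 5 WT FLAG share was 2.38% of members and 5.76% of gained sites, a difference of -3.38 points (-4.58 to -2.28), and beyond 1 kb the difference was 0.330 points (-0.467 to 1.10). Beyond 1 kb the order was the reverse in all 10 lists, by 0.247 to 1.03 points. The interval excluded 0 in 3 of them, day 10 WT with JMJD3 (1.03, 0.461 to 1.62), day 10 KO with FLAG (0.956, 0.210 to 1.70) and day 10 KO with JMJD3 (0.713, 0.0710 to 1.36).

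**Figure D4:**
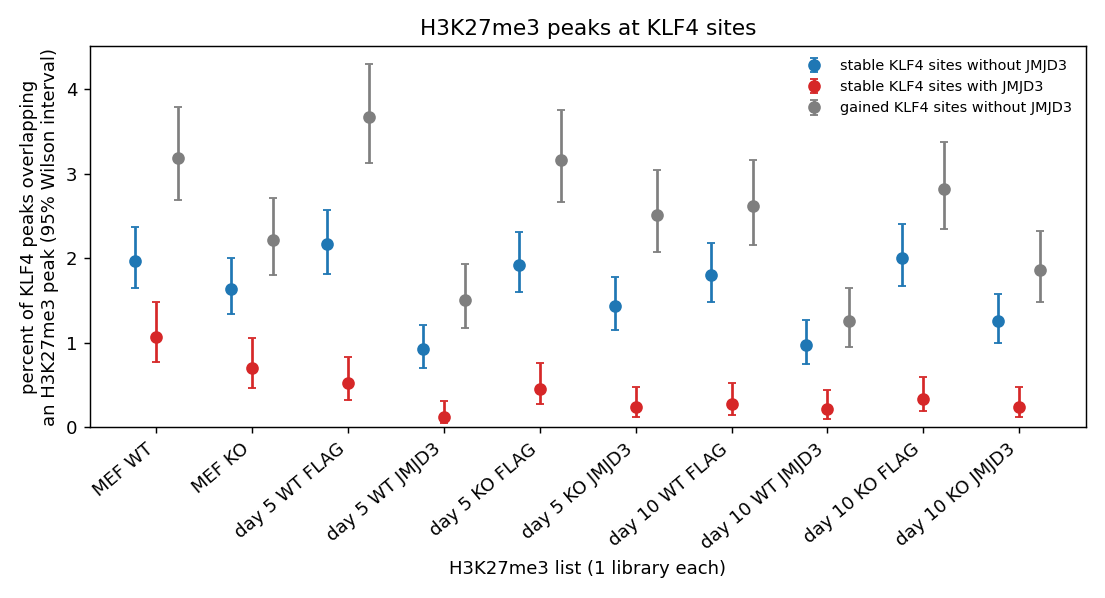
Percent of KLF4 peaks that overlapped an H3K27me3 peak in each of 10 lists, 1 library each, with 95% Wilson intervals, for stable sites without JMJD3, stable sites with JMJD3 and gained sites without JMJD3. Stable sites without JMJD3 range from 0.924% to 2.16% and lie above stable sites with JMJD3 in every list.

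H3K27me3 went with distance from JMJD3, at members as at gained sites without JMJD3. A mark in any list was found at 4 of the 616 members with JMJD3 400 to 1000 bp away (0.649%, 0.253 to 1.66). The share was 3.09% at 1 to 10 kb, 4.39% at 10 to 50 kb and 5.60% (4.76 to 6.57) beyond 50 kb. At gained sites without JMJD3 the shares over these bins were 1.56%, 3.37%, 5.63% and 8.02%. The members' KLF match share over the same bins was 52.9%, 51.5%, 50.9% and 47.0%.

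With JMJD3 the number of marked members was lower in each of the 4 pairs of lists of the same day and genotype. The mean difference in share, JMJD3 minus FLAG, was -0.824 percentage points (SD 0.311, n = 4 pairs), with p = 0.125 in an exact two-sided permutation test over the pairs, the smallest p that 4 pairs allow. The pairs differ in day and genotype and are not replicates of 1 condition, so the SD mixes these effects. At day 5 in WT cells the number of marked members went from 124 to 53, a ratio of 0.427, while the number of all H3K27me3 peaks had a ratio of 0.788. In KO cells at day 5 it went from 110 to 82, a ratio of 0.745, while all peaks had a ratio of 1.16. At day 10 the ratios were 0.544 in WT (103 to 56, all peaks 0.593) and 0.626 in KO cells (115 to 72, all peaks 0.907). The other KLF4 classes went down too. Gained sites without JMJD3 had ratios of 0.411 and 0.794 at day 5 and 0.481 and 0.661 at day 10, WT before KO. Stable sites with JMJD3 had ratios of 0.235 (17 to 4) and 0.533 (15 to 8) at day 5 and 0.778 (9 to 7) and 0.727 (11 to 8) at day 10, lower than the members' at day 5 and higher at day 10. Over all KLF4 peaks 299 and 121 were marked at day 5 in WT cells. With all 10 lists reduced by score to the shortest, the ratios were 0.473 and 0.524 at day 5 and 0.778 and 0.605 at day 10, WT before KO, so the order of the genotypes at day 10 turned. With a score of at least 20 it turned as well, at 0.760 in WT and 0.649 in KO cells. Of the 124 members marked at day 5 in WT cells with FLAG, 45 kept the mark with JMJD3 and 79 did not, and 8 were marked only with JMJD3. The mark was kept at 3 of 17 stable sites with JMJD3, 59 of 146 gained sites without JMJD3 and 1 of 12 gained sites with JMJD3. In KO cells 64 of 110 members kept the mark, 46 did not and 18 were new. The other classes kept it at 6 of 15, 72 of 126 and 3 of 11, in the same order.

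Turnover of the mark between time points without exogenous JMJD3 was near that of all KLF4 peaks. From MEF to day 5 with FLAG the WT number went from 113 to 124, with 78 in both, and the KO number from 94 to 110, with 53 in both. From day 5 to day 10 with FLAG the WT number went from 124 to 103, with 64 in both, and the KO number from 110 to 115, with 69 in both. The share of marked members that was marked again was 69.0%, 56.4%, 51.6% and 62.7% in these 4 steps, and over all KLF4 peaks it was 62.8%, 60.3%, 51.2% and 61.5%. All 4 members' intervals included the value over all KLF4 peaks. In WT cells 28 of the 113 members marked in MEFs were marked in no other WT list. The same held for 23 of 35 stable sites with JMJD3, 30 of 127 gained sites without JMJD3 and 12 of 21 gained sites with JMJD3. Of the 124 members marked at day 5 with FLAG, 46 were unmarked in MEFs. The other classes had 6 of 17, 55 of 146 and 6 of 12, in the same order.

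Among FLAG H3K27me3 peaks that held a member, the share not called with JMJD3 was compared with the share for FLAG peaks without any KLF4 peak. At day 5 in WT cells 67 of 121 such peaks were not called with JMJD3 (55.4%, 46.5 to 63.9), where 46.4% of all FLAG peaks were not. The difference from peaks without KLF4 was 9.14 points (0.166 to 17.8). It was 0.996 points (-7.65 to 9.97) when FLAG and JMJD3 peaks within 1 kb of each other counted as shared. In KO cells at day 5, 34 of 111 were not called (30.6%, all FLAG peaks 33.8), a difference of -3.46 points (-11.4 to 5.73). At day 10, 56 of 101 were not called in WT cells (55.4%, all FLAG peaks 59.6), a difference of -4.56 points (-14.4 to 4.86), and 39 of 112 in KO cells (34.8%, all FLAG peaks 44.4), a difference of -10.2 points (-18.5 to -0.947). The day 10 KO interval reached 0 in 4 of the alternatives, with differences from -8.27 to -1.19 points. Without the wide peaks that lacked a KLF match, the day 5 WT difference was 14.9 points (5.37 to 23.6) and the day 10 WT difference 1.79 points (-8.68 to 11.3), which turned its direction. Against FLAG peaks that held other KLF4 peaks and no member, the differences were 10.6 points (-0.743 to 21.6) and 4.68 points (-6.04 to 15.7) at day 5 and 7.68 points (-5.16 to 20.1) and 5.68 points (-5.55 to 17.0) at day 10, WT before KO.

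Peaks with a member had higher scores than peaks without KLF4, with medians of 17.7 and 12.9 at day 5 in WT cells. Within quartiles of the score, from the lowest, the shares not called at day 5 in WT cells were 86.4% with a member and 78.7% without KLF4, then 71.4% and 62.3%, 70.6% and 34.8%, and 20.5% and 6.63%. The 2 upper quartiles hold 34 and 44 peaks with a member, and their intervals (53.8 to 83.2 and 11.2 to 34.5) lay above the shares without KLF4. The day 5 KO lists gave 69.2% and 65.7%, 56.5% and 46.2%, and 30.0% and 19.3% in the lower 3 quartiles. In the upper quartile all 35 peaks with a member were called with JMJD3, against 3.07% not called without KLF4. That 0 of 35 has a Wilson upper bound of 9.89%, and 3 counts of 35, the limit that a count of 0 allows, is 8.57%. At day 10 the share with a member was the lower in 3 of 4 quartiles in WT cells and in 2 of 4 in KO cells.

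At day 5, 85 members were marked with FLAG in both genotypes. With JMJD3, 38 of them kept the mark in both genotypes (44.7%, 34.6 to 55.3), 22 were called in neither (25.9%, 17.8 to 36.1), 22 were not called in WT cells only and 3 not in KO cells only (3.53%, 1.21 to 9.87). Over all 195 KLF4 peaks marked with FLAG in both genotypes the shares were 43.1% kept in both, 25.1% called in neither, 25.6% not called in WT only and 6.15% not called in KO only, so the members were near this background.

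Of the 22 members whose day 5 peak was called with FLAG and not with JMJD3 in both genotypes, 2 were at genes of the epithelial list, Ovol2 and Pkp1. Cldn7 of the same list kept its mark with JMJD3. The Ovol2 member (chr2:144330740-144331398), part of whose sequence is given above, lay 626 bp downstream of a TSS of this epithelial transcription factor gene and at -390 bp from one of 1700108N11Rik. It was marked in both MEF lists, at day 5 with FLAG in both genotypes, and in both day 10 KO lists. Pkp1, which encodes the desmosome protein plakophilin, was marked in both MEF lists and both day 5 FLAG lists and in no other. Epop, a gene for a Polycomb-associated protein, showed the same 4 lists.

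Further genes in this set had other roles. Usp44, a deubiquitinase gene, was unmarked in MEFs and marked with FLAG at both days in both genotypes. Ppara, a nuclear receptor of fatty acid use, was marked with FLAG at day 5 in both genotypes and at day 10 in KO cells. Gpc3, a glypican gene on chromosome X, and Spsb1 were marked only in the 2 day 5 FLAG lists. Unc5a and Dpysl5, genes of axon guidance, and Unc13a, a gene of synaptic vesicle release, were marked in MEF WT cells as well, and Unc5a and Dpysl5 in all 6 lists without exogenous JMJD3. The others were Ism2, Lrfn1, Synpo, Fam89a, Cnih3, Fam81a, Tnfrsf13c, Slc44a3, Slc2a13, Fbrsl1, Gm47300 and BC067074. These were chosen by their values, so the pattern itself is no result.

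At the other end, 19 members were marked in all 10 lists (0.331%, 0.212 to 0.517), where 0.257% of all KLF4 peaks were. They fell into unlike groups. In 12 the peak held no KLF match, the width was 546 to 3963 bp (median 732 bp) and the median GC content was 39.3%. Gm21738, Gm28502, Gm10800, Gm5466, Gm10801, Cldn34d, Gm15247, Gm11668 and an intron of Aida were among them. In the other 7 the peak held a match, the median width was 298 bp and the median GC content 71.5%. These were 4931408C20Rik, Cldn7, Gm11515, Gsc2, Nrxn2, Rbm46 and Calb1. Without the 100 wide members that lacked a match, marked members numbered 109 with FLAG and 36 with JMJD3 at day 5 in WT cells, a ratio of 0.330. The ratios of the other pairs were then 0.719 at day 5 in KO cells and, at day 10, 0.449 in WT and 0.554 in KO cells. These wide members were marked in 13 to 17 cases in each list, with and without JMJD3. Without them the TSS share was 59.0% and its difference from stable sites with JMJD3 10.4 points (8.28 to 12.6).

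A member lay within 1 kb of a TSS of 3374 of 21911 protein-coding genes (15.4%). Of these genes 3224 had 1 member, 146 had 2 and 4 had 3 or more, namely Gm10715 with 4 and Epb41l4a, Impdh1 and Trim28 with 3 each. Stable sites with JMJD3 reached 1600 genes, or 7.30%. Both kinds of site were found at 112 genes, which is 3.32% of the genes with a member and 7% of those with a stable site with JMJD3. The rule itself kept JMJD3 more than 400 bp from every member and so limits this overlap, which is a description only. The gene lists that follow are described beside 15.4%, without a test. When no JMJD3 position was allowed within 1000 bp, 12.96% of all genes were reached.

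The KLF and SP family was reached at 10 of 26 genes (38.5%, 22.4 to 57.5), and 5 of 26 (19.2%) had a stable site with JMJD3, where 7.30% of all genes did. The genes were Klf3, Klf5, Klf8, Klf9, Klf11, Klf13, Klf16, Sp1, Sp2 and Sp4. Klf5, which encodes a factor of pluripotent and epithelial cells, had 2 members at -39 and 137 bp from its nearest TSS. At Klf3, Klf9, Klf11 and Klf13 a JMJD3 position lay 497 to 865 bp from the member, and with none allowed within 1000 bp the count was 6 of 26 (23.1%, 11.03 to 42.1). None of these members was marked by H3K27me3 in any list, as at 95.7% of all members. Klf14 had a member in its coding exon 1016 bp from the TSS, marked in the 4 day 10 lists and in none before.

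Cell cycle and senescence genes were reached at 9 of 20 (45%, 25.8 to 65.8), with no H3K27me3 at these members in any list, as at 95.7% of all members. A stable site with JMJD3 was found at 4 of the 20 (20%), where 7.30% of all genes had one. Cdkn2a, the locus of INK4A and ARF, had 2 members at separate starts, each measured from its own nearest TSS. One of 509 bp (chr4:89294455-89294963) lay at -56 bp and one of 183 bp (chr4:89282679-89282861) at -578 bp. The second had the smallest width among members and held no KLF match. The neighbour Cdkn2b had a member at 2 bp. Cdkn2a and Cdkn2b inhibit the cell cycle in senescence. JMJD3 was 145178 bp or more from the Cdkn2a members but 552 bp from the one at Cdkn1b, 645 bp at Cdk1 and 666 bp at Ccne1. With none allowed within 1000 bp the count was 6 of 20 (30%, 14.5 to 51.9). The other inhibitor genes were Cdkn1b, Cdkn1c and Cdkn2d. Ccne1, Cdk1 and Cdk2, which drive the cycle, and Mdm2, a ubiquitin ligase gene, had a member each.

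Polycomb and H3K27 demethylase genes were reached at 8 of 21 (38.1%, 20.8 to 59.1). With no JMJD3 position within 1000 bp the count was 6 of 21 (28.6%, 13.8 to 50.0). A stable site with JMJD3 was found at 3 of 21 (14.3%), where 7.30% of all genes had one. Eed, Rbbp7, Mtf2 and Phf1 encode parts or partners of the complex that writes H3K27me3, Rnf2, Cbx7 and Cbx8 parts of the complex that reads it, and Phf20 a reader of other methyl-lysines. Of these only Cbx7 was marked, in WT MEFs alone. Kdm6b, the gene of JMJD3, had 2 members upstream, at -3984 and -4424 bp, with JMJD3 920 and 480 bp away. Cohesin, mediator and elongation genes were reached at 5 of 16 (31.3%, 14.2 to 55.6). These were Stag1 of cohesin, Med1, Med12 and Cdk8 of mediator and Ctcf of chromatin loops, all unmarked. With no JMJD3 position within 1000 bp the count was 4 of 16 (25%, 10.2 to 49.5), and 1 of 16 (6.25%) had a stable site with JMJD3.

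Epithelial genes were reached at 8 of 32 (25%, 13.3 to 42.1), and 4 of the 8 had a member marked in at least 1 list, where 4.62% of all genes with a member did. With no JMJD3 position within 1000 bp the count was 6 of 32 (18.8%, 8.89 to 35.3). A stable site with JMJD3 was found at 5 of 32 (15.6%), where 7.30% of all genes had one. Cldn7, a tight junction gene, was marked in all 10 lists, with a member 91 bp from its TSS (chr11:69965314-69965659). Ovol2 was marked in 6 lists, Pkp1 in 4 and F11r, a junction adhesion gene, in KO MEFs alone. Jup, Grhl1 and Ddr1 were among the genes with unmarked members. Esrp1, a splicing factor gene of epithelia, and Crb3, a polarity gene, had members at -1397 and -1549 bp from a TSS, both unmarked. The Crb3 member lay nearer to a TSS of Slc25a23, within 1 kb of it.

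Mesenchymal genes were reached at 2 of 22 (9.09%, 2.53 to 27.8), Col1a1 and Lox, which encode a collagen and the enzyme that crosslinks it. Neither member was marked, nor was one in an intron of Tgfb1, 2267 bp from the TSS. Pluripotency genes were reached at 1 of 25 (4%, 0.710 to 19.5), Tfcp2l1, where the member lay at -22 bp with JMJD3 2264 bp away. It was marked in WT MEFs and at day 5 in KO cells with JMJD3, and in no other list. Pou5f1, the gene of OCT4, had a member in a coding exon 3435 bp from a TSS, unmarked.

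The housekeeping lists ranged from 15.4% to 23.1%. Ribosomal protein genes were reached at 16 of 79 (20.3%, 12.9 to 30.4), mitochondrial ribosomal protein genes at 18 of 78 (23.1%, 15.1 to 33.6), complex I genes at 10 of 46 (21.7%, 12.3 to 35.6) and proteasome genes at 6 of 39 (15.4%, 7.25 to 29.7). Rpl4, Mrps15, Mrpl10, Ndufv1, Psmb1 and Psmc4 were among them. With no JMJD3 position within 1000 bp the count of ribosomal protein genes was 9 of 79 (11.4%, 6.11 to 20.3). Hox genes, well-known targets of Polycomb, had no member at 39 genes, with a Wilson upper bound of 8.97%. The limit that a count of 0 allows, 3 counts of 39, is 7.69%. Within 5 kb 1 Hox gene, Hoxd3, had a member. Olfactory receptor genes had 1 at 1092 (0.0916%), Olfr557.

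**Figure D5:**
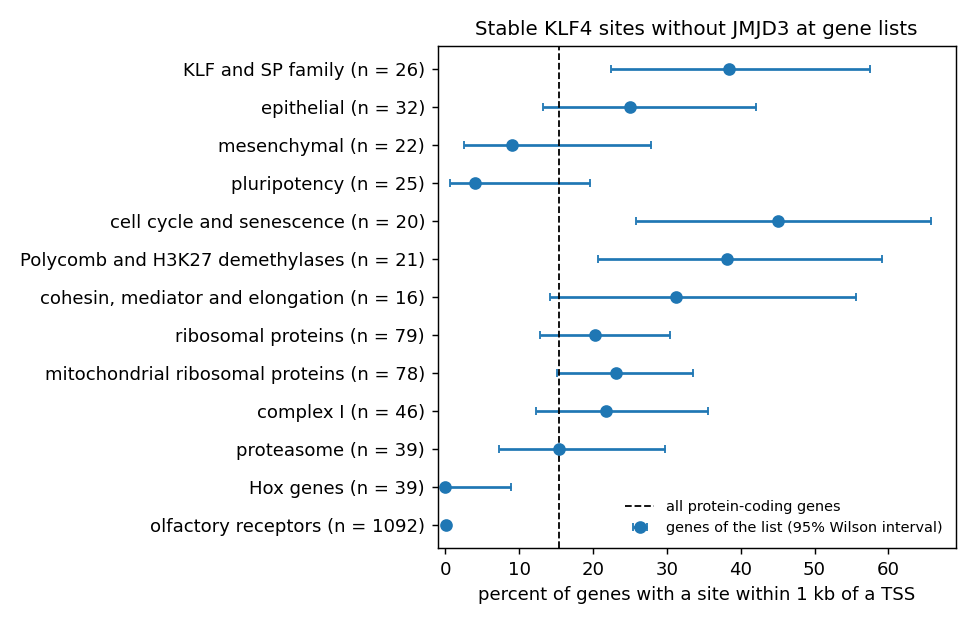
Percent of the genes of each list with a stable KLF4 site without JMJD3 within 1 kb of a TSS, with 95% Wilson intervals. The dashed line marks the 15.4% of all protein-coding genes, with cell cycle and senescence genes at 45% and Hox genes at 0.

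The members with the most KLF matches were chosen as the extremes of that count. Gm29199 held 23, Osbpl1a 17, Sec16b 14, Tmem270 12 and Dazap2 10 in the peak. The Sec16b and Tmem270 stretches printed above show the same letters recurring along the peak. Of the 5, Dazap2 alone lay at a TSS, at -107 bp. None was marked by H3K27me3 in any list, as was the case for 95.7% of all members.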

How the data were processed

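Of 20 samples, 14 had a peak list, namely 10 H3K27me3, 2 KLF4 and 2 FLAG-JMJD3 libraries, with 1 library per group. The 6 samples without a list, 4 inputs and 2 H3K27ac samples, were not used here. The authors mapped reads to mm10 with Bowtie2 2.2.0 by the submitters' processing notes, or another version by the methods. H3K27me3 peaks came from DFilter, KLF4 and JMJD3 peaks from MACS2, and no pooling of libraries was stated. H3K27me3 reads were scaled to a Drosophila spike-in, and whether this entered the peak calls was not stated. The deposited H3K27me3 lists hold intervals, each with a peak score of 6.56 to 200 that the authors took from the caller. The deposited KLF4 lists hold intervals and the deposited JMJD3 lists 1 bp positions, with no other values. Read numbers were not used here, so lists were not compared at equal depth.

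Midpoints were matched within 400 bp, H3K27me3 by an overlap of at least 1 bp. Start sites were taken from the basic set of GENCODE M21, and bases from the RefSeq copy of GRCm38.p6, the assembly behind mm10. Motifs were matched in 200 bp windows. The 4 FLAG and JMJD3 pairs of H3K27me3 lists were compared with an exact two-sided permutation test. Python 3.11.15, numpy 2.4.6, scipy 1.17.1, statsmodels 0.14.6, pysam 0.24.0, matplotlib 3.10.9 and samtools 1.23.1 served for the analysis, and bedtools 2.31.1 gave the same overlap counts. All classes were recovered in simulated data with 14391 peaks. The sites, gene lists, comparisons and alternatives were chosen with earlier results of these data known. Named members were the genes of these lists with a member, the 10 widest, the 10 in the most H3K27me3 lists, the 22 with a day 5 mark called only with FLAG in both genotypes and the 5 with the most KLF matches. Other members marked in all 10 lists, those at the 400 bp threshold and the genes with 3 or more members were named after their values were seen. Some genes of the lists are not reported here by name. Alternatives covered the matching distances, peak width, TSS set, motif window, H3K27me3 overlap, score and list length.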

Additional observations from a re-analysis of the deposited data

Results flagged for a closer look

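The share of FLAG H3K27me3 peaks no longer called with JMJD3, for peaks at stable KLF4 sites without JMJD3 minus peaks without KLF4, had opposite signs in some pairs of lists. It was 9.14 points at day 5 in WT cells (0.166 to 17.8) against -3.46 points at day 5 in KO cells (-11.4 to 5.73). Against day 10 in WT cells, at -4.56 points (-14.4 to 4.86), the day 5 WT value of 9.14 points also stood on the other side of 0. The difference between these differences was not tested, since each rests on 1 library per group, and these negative intervals include 0. Day 10 in KO cells was also negative, at -10.2 points (-18.5 to -0.947), with an interval below 0. The day 5 WT value was 0.996 points when peaks within 1 kb counted as shared. Without the wide peaks that lacked a KLF match, the day 5 values were 14.9 points in WT and -1.44 points in KO cells, and the day 10 WT value was 1.79 points, so the sign at day 10 turned. Against FLAG peaks with other KLF4 peaks all 4 differences were positive with intervals across 0. Within score quartiles the day 5 KO share was above that of peaks without KLF4 in 3 of 4.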

How the results depend on the processing

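Every group had 1 library, so no replicate numbers were shared between groups. The comparison of FLAG and JMJD3 lists paired by day and genotype, p = 0.125 in an exact permutation test, was added after seeing the data, as were the gene list counts with no JMJD3 within 1000 bp. Of 112 alternative values of the differences from stable sites with JMJD3, all kept their direction and in 106 the interval also stayed on its side of 0. In 87 of 90 H3K27me3 alternatives the interval stayed above 0. It reached 0 for WT MEFs over the wider 50% of each KLF4 list (0.740 points) and with a score of at least 20 for day 10 with JMJD3 in WT (0.209) and KO cells (0.235). Over the wider 50% there were 2544 members at 1756 genes, with a median width of 408 bp, a TSS share of 66.4%, a KLF share of 48.1% and a KLF difference of 1.84 points. With 200 bp for both distances the TSS share was 60.6% and the median width 334 bp, and with 800 bp they were 56.6% and 325 bp, with a TSS difference of 1.76 points. With no JMJD3 within 1000 bp the share was 55.6% and the difference 1.37 points. TSSs of all transcripts gave 61.3%, those of coding transcripts 54.8% and a distance of 5 kb 68.6%. Leaving out soft-masked windows, an alternative chosen after seeing the data, gave a TSS share of 62.4% and a KLF share of 51.6%. The KLF share was 34.8% in 100 bp and 59.4% in the whole peak. The day 5 WT share with H3K27me3 was 5.48% with FLAG and 3.07% with JMJD3 for peaks within 1 kb, 1.01% and 0.349% with a score of at least 20, and 1.29% and 0.611% with all lists reduced by score to the shortest. With JMJD3 it was 0.698% for midpoints inside the mark and 0.639% without the wide peaks that lacked a KLF match, chosen after seeing the data. Counting FLAG and JMJD3 peaks within 1 kb as shared, 44.6% of marked peaks at members were not called with JMJD3 at day 5 in WT cells, a difference of 0.996 points. The share near OSlowKM JMJD3 was 2.32% within 1 kb. The causes were not tested. Read numbers were not used here, so no comparison between lists was set to equal depth.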
